A study of Mus musculus with 27 samples.

Results

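C9-BACexp mice were compared with C57BL/6J mice after both had received a Cas13 effector with a crRNA that targets no transcript (NTG), which gives the genotype difference in the presence of the effector and in the absence of knockdown. The comparison held 11 of the 27 libraries of the study, 6 from C9-BACexp mice and 5 from C57BL/6J mice, and each library came from the sorted motor cortex nuclei of 1 mouse. C9-BACexp mice are C57BL/6J mice that carry, in addition to their own C9orf72, a bacterial artificial chromosome with the whole human C9ORF72 gene and an expanded repeat in its first intron. The C57BL/6J mice were littermates without that chromosome. Both groups were injected in the motor cortex at 6 weeks of age with a PHP.eB vector for the effector and NTG and with a second PHP.eB vector for EGFP-KASH, a green fluorescent protein anchored at the nuclear envelope, and nuclei that carried EGFP-KASH were sorted 2 months later. The labels name the effector RfxCas13d, while the study's text names the high-fidelity form RfxCas13d-N2V8 for this experiment. Both vectors used the CAG promoter, which is active in most cell types, so the sort was not limited to neurons by its design. The study's staining of C9-BACexp mice found EGFP-KASH mostly in cells with the neuronal marker NeuN. Expression was limited in astrocytes and microglia, and no stain for oligodendrocytes was described. The mouse line is 1 transgene insertion, and no second line was analysed here.

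Expansion of a GGGGCC repeat in C9ORF72 accounts for a large part of inherited ALS (amyotrophic lateral sclerosis) and FTD (frontotemporal dementia). The repeat is transcribed into RNA that gathers in nuclear foci and is translated into dipeptide repeat proteins, and the protein encoded by the normal gene acts with SMCR8 and WDR41 in endosomal and autophagic traffic. Motor cortex holds layered projection neurons, inhibitory interneurons, astrocytes, vascular cells, microglia and oligodendrocytes, whose myelin wraps axons between the nodes of Ranvier.

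The transgene separated the groups without exception. Human C9ORF72 transcripts V1, V2 and V3 together reached 80.57 to 103.2 CPM (the count of a gene relative to the TMM-scaled total of its library) in the C9-BACexp mice, and 0 counts were assigned to them in the C57BL/6J mice. Against a floor of 3 counts per library, 0.119 CPM, V3 was at least 245-fold higher, V2 at least 315-fold and V1 at least 204-fold, a bound that covers counting error only. Totals were 23251069 to 36777972 counts in the C9-BACexp libraries and 25224000 to 31050062 in the C57BL/6J libraries, and they did not differ by more than their spread (exact permutation test, two-sided, p = 0.972). Xist exceeded 100 CPM in 3 C9-BACexp and 2 C57BL/6J mice, so both sexes were present in both groups. No fit held a term for sex, and its part in the differences below was not tested. The labelled neurons carried their markers, with Rbfox3 (NeuN) at 727 to 1610 CPM and the glutamate transporter gene Slc17a7 at 140 to 205 CPM over the 11 libraries. Oligodendrocyte Mbp lay at 194 to 949.6 CPM. Astrocyte genes were uneven, with Slc1a2 at 443 to 667 CPM and Aqp4 at 1.27 to 4.12 CPM. Cx3cr1 of microglia (0.758 to 2.64 CPM) and Cldn5 of endothelium (0.16 to 0.999 CPM) stayed low. EGFP-KASH itself stood at 15.1, 29.7, 65.1, 40.6 and 20.4 CPM in the C57BL/6J mice and at 38.2 to 61.4 CPM in the C9-BACexp mice, a difference of 0.58 on the log2 scale that did not pass (exact permutation p = 0.145, 0.338 adjusted over the 7 single values tested).

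Of 21768 genes tested, 1435 (6.59%) passed as different between the genotypes, with a change of more than 1.2-fold and adjusted p below 0.05, and 872 (4.01%) of them had their higher level and 563 (2.59%) their lower level in C9-BACexp mice. These calls came from edgeR's quasi-likelihood test in 1 model of all 6 groups of the study with 4 factors of unwanted variation, and they leaned on those factors. Without them 6 genes were called, 3 higher (0.0138%) and 3 lower (0.0138%), and 3066 genes (14.1%) had an unadjusted p under 0.05. The 3 higher were the human transcripts, and the 3 lower were Herc3 and, named after their values were seen, the predicted genes Gm30687 and Gm36283. Among the called genes the standard error without factors was a median of 1.814 times that with them. The factors were computed from residuals within the groups of these same libraries. Standard errors and adjusted p-values of the fit with them thus leave out the mouse-to-mouse spread that the factors took up. With factors taken from the differences between replicates 144 genes were higher (0.662%) and 75 lower (0.345%), and in the 11 libraries alone without factors 121 genes (0.556%) passed, 110 of which were among the 1435. A set of 58 genes, 24 higher and 34 lower, passed in all 3 of these analyses, with the residual factors, with the replicate factors and in the 11 libraries alone. DESeq2 without factors called 136 genes higher (0.625%) and 146 lower (0.671%), of which 243 in all were among the 1435.

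The called differences were mostly modest in size. The median log2 fold change was 0.55 for the higher genes (interquartile range 0.38 to 1.03) and −0.49 for the lower genes (−0.77 to −0.38), against 0.02 over all genes tested. A fold change over 2 was reached by 229 of the higher and 95 of the lower genes. Per mouse, the values of 600 of all tested genes (2.76%) did not overlap between the genotypes, and 344 of the called genes were of this kind, 192 higher (0.882%) and 152 lower (0.698%). In the other 1091 called genes at least 1 mouse lay within the range of the other genotype. The calls held when any 1 of the 11 libraries was left out for 540 genes, 330 higher and 210 lower. With 1 library left out the count of calls ranged from 1008, without C57BL/6J replicate 2, to 2122, without C57BL/6J replicate 3.

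Of the called higher genes whose mice did not overlap and whose mean was at least 5 CPM, predicted genes left out, the 15 with the lowest p were taken as the leading ones, and they were not tested as a group. Phldb1, which encodes a phosphoinositide-binding protein of the cell cortex, was first by p among the mouse genes. It lies on the reverse strand of GRCm39 at chr9:44597601-44646550 and stood at 65.8, 82.5, 107, 137 and 133 CPM in C57BL/6J replicates 1 to 5, against a lowest, median and highest value of 214, 254 and 298 CPM in the C9-BACexp mice. The lowest C9-BACexp mouse was thus well above the highest littermate, and the log2 fold change was 1.31 ± 0.10 (SE; adjusted p = 4.99e-07). In the edgeR fit without factors it was 1.28 ± 0.25 (adjusted p = 0.0737). Micall1, an adaptor of endocytic recycling, had 24.9, 25.5, 26.2, 35.9 and 31.0 CPM in the C57BL/6J mice and 43.5, 58.1 and 66.5 CPM as lowest, median and highest in C9-BACexp, a change of 0.98 ± 0.11 (adjusted p = 4.08e-05). Fnbp1, an F-BAR protein that bends membranes, had 243, 270.3, 299, 345 and 302 CPM against 399, 448 and 543 CPM and rose by 0.66 ± 0.07 (adjusted p = 6.00e-05). Both genes were apart in every mouse, as the choice required.

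The focal adhesion adaptors Sorbs3 (vinexin) and Wipf1 (WASP-interacting protein), also among the 15, were likewise higher in every C9-BACexp mouse by the choice. Sorbs3 was at 6.99, 11.8, 7.51, 15.96 and 24.4 CPM in the C57BL/6J mice and at 26.4, 29.7 and 48.1 CPM in C9-BACexp mice (log2 fold change 1.37 ± 0.16, adjusted p = 6.77e-05). Wipf1 was at 11.8, 20.3, 14.8, 26.7 and 26.2 CPM against 30.6, 36.2 and 55.6 CPM (1.02 ± 0.11, adjusted p = 2.68e-05). C57BL/6J replicate 5 came close to the lowest C9-BACexp mouse in Sorbs3, and replicates 4 and 5 did so in Wipf1. Regulators of small GTPases were also higher, with Arhgap23 at 157 to 248 CPM in C57BL/6J and 291 to 369 CPM in C9-BACexp mice (0.73 ± 0.07, adjusted p = 1.14e-05) and Agap1 at 420.1 to 569 CPM against 685 to 776 CPM (0.57 ± 0.07, adjusted p = 6.96e-05). The collagen receptor kinase Ddr1 rose by 0.64 ± 0.07 and the class II phosphoinositide 3-kinase Pik3c2b by 0.80 ± 0.08. The phospholipid flippase Atp11a rose by 0.58 ± 0.06 and Ypel2 by 0.83 ± 0.09. The largest change of the 15 leading higher genes was that of Chdh, choline dehydrogenase of mitochondria, at 6.20, 5.31, 4.65, 9.71 and 8.41 CPM in C57BL/6J mice and 16.3, 19.1 and 34.6 CPM in C9-BACexp mice (1.65 ± 0.18, adjusted p = 4.84e-05). Zfhx2os, an antisense transcript of the homeobox gene Zfhx2 whose reads can be told from that gene only by strand, rose by 1.19 ± 0.11 (adjusted p = 7.68e-06). Of these genes, Phldb1, Micall1, Fnbp1, Ypel2, Chdh and Zfhx2os were among the 58 that passed in the 3 analyses. The scores of the myelin, astrocyte and striatal lists were also entered as covariates, in place of the 4 factors. None of the 15 then passed, at adjusted p-values of 0.685 and above. None had passed without factors or covariates either, so nothing is read from the lost calls. With the covariates 14 of them had a change that was smaller by over 1.5 times or turned in sign. Phldb1 was then at 0.49, Chdh at 0.60, Arhgap23 at 0.13 and Micall1 at 0.075, and the cause was not tested.

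**Figure D1:**
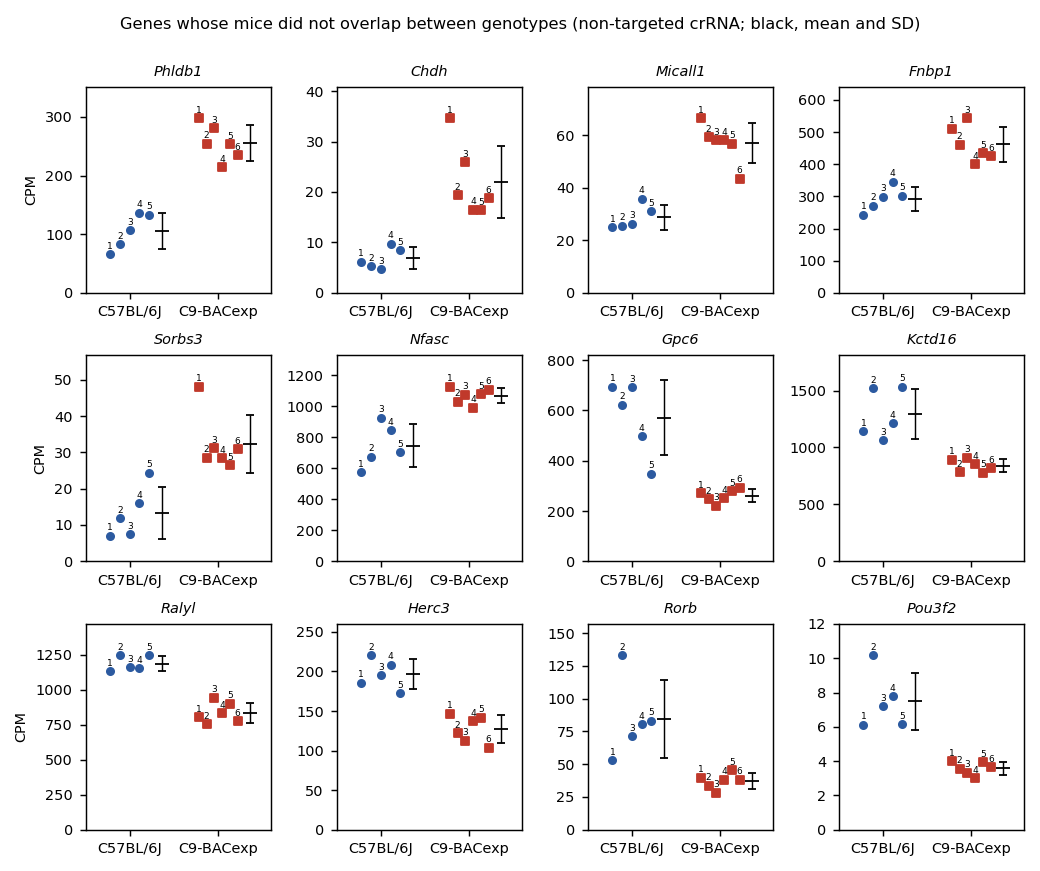
CPM of 12 genes in each mouse, with C57BL/6J mice as blue circles, C9-BACexp mice as red squares, the replicate number beside each point, and the mean and SD in black. In each panel every mouse of one genotype lies outside the range of the other, for Phldb1 with 65.8 to 137 CPM against 214 to 298 CPM.

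The 15 leading lower genes, chosen by the same rule, were likewise not tested as a group. Gpc6, one of the glypicans, heparan sulfate proteins on a lipid anchor, lies on GRCm39 at chr14:117162727-118216940 and had 695, 623, 693, 499 and 349 CPM in the C57BL/6J mice. In C9-BACexp mice its lowest, median and highest values were 220.5, 261 and 293 CPM, a fall of 1.08 ± 0.10 on the log2 scale (adjusted p = 8.64e-06). The C57BL/6J mice spread more widely than the C9-BACexp mice, and no mouse overlapped. Kctd16, an auxiliary subunit of GABA-B receptors, had 1141, 1522, 1063, 1214 and 1534 CPM against 778, 834 and 910.0 CPM (−0.61 ± 0.07, adjusted p = 7.63e-05). Cdh12, a classical cadherin, had 972, 1456, 999, 1273 and 1156 CPM against 740.1, 775 and 854 CPM (−0.56 ± 0.07, adjusted p = 9.06e-05). Rgs7, which speeds the shut-off of G proteins in neurons, had 824, 1030, 732, 806 and 772 CPM against 496, 560.1 and 621 CPM (−0.56 ± 0.07, adjusted p = 9.48e-05). In all of them the highest C9-BACexp mouse remained below the lowest littermate, as the choice required.

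Herc3, a HECT ubiquitin ligase at chr6:58808442-58897383 of GRCm39, had 186, 221, 195, 208 and 173 CPM in C57BL/6J mice and 104, 129.6 and 147 CPM in C9-BACexp mice (−0.62 ± 0.08, adjusted p = 2.92e-04). It also passed without factors, with −0.63 and an adjusted p of 0.0203. Fbxw7, the substrate-binding part of another ubiquitin ligase, fell by 0.48 ± 0.06, the kinase Nlk by 0.43 ± 0.05, and Camk2n1, an inhibitor of CaM kinase II, by 0.72 ± 0.10. The lipid enzymes Cers6, a ceramide synthase, and Chka, a choline kinase, fell by 0.45 ± 0.06 and 0.41 ± 0.06. The RNA-binding protein gene Ralyl had narrow ranges, 1132 to 1248 CPM in the C57BL/6J mice and 756 to 943 CPM in the C9-BACexp mice (−0.51 ± 0.07, adjusted p = 2.37e-04). The adhesion genes Nectin3 (−1.01 ± 0.14, adjusted p = 2.71e-04) and Nlgn1, neuroligin 1 of excitatory synapses (−0.38 ± 0.06, adjusted p = 6.08e-04), were also lower. In Nectin3 the highest C9-BACexp mouse and the lowest littermate were both at 27.97 CPM to the digits given. In Nlgn1 these mice were at 1850 and 1868 CPM. Gpc6, Kctd16, Cdh12, Rgs7, Herc3, Fbxw7, Nlk, Camk2n1, Chka and Ralyl were among the 58 genes of the 3 analyses. With the list scores as covariates in place of the factors none of these 15 passed either. Without factors or covariates Herc3 alone of them had passed. With the covariates 13 had a change smaller by over 1.5 times, with Gpc6 at −0.50 and Rgs7 at −0.21.

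Among the gene lists examined, that of myelin and oligodendrocyte genes had the largest share of calls. Of 35 tested members 30 were higher, none was lower and 5 did not pass, with a median log2 fold change of 1.07 against 0.02 over all genes and a background of 4.01% called higher. The summed level of the list was 1641, 1991, 1675, 2810 and 4658 CPM in C57BL/6J replicates 1 to 5 and 3239 to 6186 CPM in the C9-BACexp mice. C57BL/6J replicate 5 thus lay within the C9-BACexp range while replicates 1, 2 and 3 lay far below it. Without factors no member passed, at a median of 0.89, and none passed in the 11 libraries alone, while 18 passed with factors from the differences between replicates. With 1 library left out 20 to 34 members were called, the lowest count being without C57BL/6J replicate 3. In such pooled nuclei a larger number of oligodendrocyte nuclei and more RNA in each cannot be told apart. Counts for the other lists below likewise come from the fit with the 4 residual factors. Without factors edgeR called no member of any list. Every list with calls in the main fit had fewer with factors from the differences between replicates and in the 11 libraries alone.

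Promoter sequences are shown for the leading gene and for a pair of myelin genes, Mag and Mobp, whose levels follow below. They run from 250 bases before to 50 bases after the start of the gene, were taken from RefSeq by gene symbol, and are given with the coordinates of build GRCm38.p6, which is not the build of the counts. Capitals mark ACAAAG or its reverse complement CTTTGT, the core sequence bound by SOX factors, searched on both strands.
Phldb1, chr9:44735149-44735448, reverse strand: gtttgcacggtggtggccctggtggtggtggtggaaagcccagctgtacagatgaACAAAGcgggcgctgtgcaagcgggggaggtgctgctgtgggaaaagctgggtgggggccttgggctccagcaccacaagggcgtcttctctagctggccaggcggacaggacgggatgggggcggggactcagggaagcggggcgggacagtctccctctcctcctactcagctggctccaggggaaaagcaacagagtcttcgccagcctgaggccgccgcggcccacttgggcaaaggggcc
Mag, chr7:30914814-30915113, reverse strand: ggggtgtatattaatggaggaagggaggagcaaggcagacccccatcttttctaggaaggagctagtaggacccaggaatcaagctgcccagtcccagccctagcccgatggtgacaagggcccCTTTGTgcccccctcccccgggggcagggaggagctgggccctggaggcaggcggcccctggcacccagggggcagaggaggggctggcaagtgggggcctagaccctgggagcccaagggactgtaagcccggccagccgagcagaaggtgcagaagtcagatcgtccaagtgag
Mobp, chr9:120149492-120149791, forward strand: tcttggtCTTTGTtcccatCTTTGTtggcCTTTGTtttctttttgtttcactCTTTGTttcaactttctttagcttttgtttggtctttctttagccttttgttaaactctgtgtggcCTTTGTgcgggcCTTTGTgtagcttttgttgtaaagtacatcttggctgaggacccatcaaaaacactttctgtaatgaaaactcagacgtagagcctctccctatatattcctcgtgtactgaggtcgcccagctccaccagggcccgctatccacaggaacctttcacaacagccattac
Phldb1 and Mag had 1 match each in these windows and Mobp had 6. For each gene the window was the first by position among those that held a match, so finding a match here was fixed by the choice. A match was held by 6147 of all 32851 promoters (18.7%). Among the genes called higher it was held by 126 of 673 with a promoter in the table (18.7%), against 3019 of 16287 tested genes (18.5%). In the myelin list 9 of 35 promoters (25.7%), from 7 of 23 genes, held it. These counts are a description of the letters in the windows.

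Transcription factors of the oligodendrocyte lineage rose along with the structural genes. Sox10, which directs oligodendrocyte differentiation, had 4.04, 8.27, 2.86, 13.3 and 17.8 CPM in the C57BL/6J mice and 15.1, 21.7 and 32.1 CPM in the C9-BACexp mice (1.47 ± 0.25, adjusted p = 0.00214). Myrf, the factor that turns on myelin genes, had 15.1, 27.9, 16.5, 43.8 and 85.7 CPM against 49.5, 63.0 and 128 CPM (1.21 ± 0.18, adjusted p = 0.001). St18, a zinc finger factor, had 62.6, 102, 56.8, 163 and 340.0 CPM against 213, 299 and 528 CPM (1.43 ± 0.17, adjusted p = 1.38e-04). In each case C57BL/6J replicate 5 was inside the C9-BACexp range and replicates 1 and 3 were lowest. Nkx6-2 rose by 1.51 ± 0.24 from a low level, 0.981 to 4.18 CPM in C57BL/6J mice.

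Genes that encode components of the myelin sheath were also called higher. Mag, the myelin-associated glycoprotein at chr7:30598464-30614474 of GRCm39, had 22.3, 32.4, 18.1, 57.9 and 83.5 CPM against 72.2, 86.5 and 157 CPM (1.39 ± 0.19, adjusted p = 3.03e-04). Mbp, myelin basic protein, had 232, 247, 194, 362 and 664 CPM against 514, 582 and 949.6 CPM (1.07 ± 0.14, adjusted p = 1.80e-04). Mog rose by 1.22 ± 0.20 (adjusted p = 0.00171). Mobp had 102, 70.2, 52.9, 154 and 179 CPM against 157, 188 and 448 CPM (1.05 ± 0.27, adjusted p = 0.0386), with an adjusted p of 0.123 and 0.061 without C9-BACexp replicates 1 and 6 and of 0.055, 0.107 and 0.137 without C57BL/6J replicates 1, 2 and 3. The enzymes of myelin lipids Fa2h (0.97 ± 0.18) and Gal3st1 (1.03 ± 0.21) rose, as did the glial connexin Gjc3 (1.25 ± 0.15). In 2 of the 35 members the mice did not overlap, both higher in C9-BACexp, where 1.43% of all tested genes were apart in that direction. They were Bcas1, a marker of newly myelinating cells at 20.6 to 55.5 CPM against 58.3 to 105 CPM (1.19 ± 0.15, adjusted p = 1.77e-04), and Nfasc, which encodes the glial and axonal neurofascins at 575 to 926 CPM against 991 to 1126 CPM (0.53 ± 0.05, adjusted p = 1.74e-05). Of 14 oligodendrocyte precursor genes, which include Pdgfra, Cspg4 and Vcan, none was called with edgeR or limma-trend and 1 with DESeq2. Of these genes 6 had an unadjusted p under 0.05, the median was −0.02, and 1 was called by edgeR without C9-BACexp replicate 1, 3 or 5 or C57BL/6J replicate 3.

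**Figure D2:**
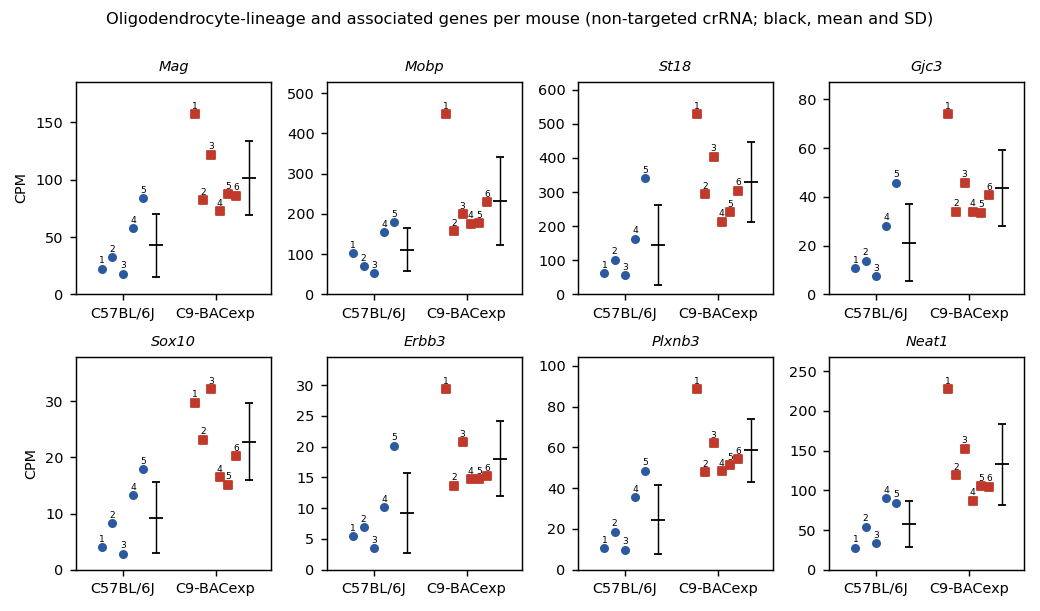
CPM per mouse of 8 genes that include oligodendrocyte factors, myelin genes, Erbb3, Plxnb3 and Neat1, drawn with the replicate number beside each point and the mean and SD in black. C57BL/6J replicate 5 lies within the C9-BACexp range in most panels and replicate 4 below it in most. For Mag they stand at 83.5 and 57.9 CPM beside 72.2 to 157 CPM. C57BL/6J replicates 1, 2 and 3 lie below that range.

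Receptors by which axons and glia signal to each other were among the higher genes. Erbb3, the neuregulin receptor of myelinating glia on the reverse strand of GRCm39 at chr10:128403392-128425811, had 5.42, 6.88, 3.51, 10.2 and 20.1 CPM in C57BL/6J mice and 13.6, 14.96 and 29.3 CPM in C9-BACexp mice (1.17 ± 0.12, adjusted p = 2.07e-05). With the growth factor gene Tgfa (1.39 ± 0.28) it made 2 of 19 tested neuregulin and ErbB genes (10.5%), and 4 were called without C57BL/6J replicate 3. Among 31 semaphorins, plexins and neuropilins 7 were higher and none lower (22.6% higher, against 4.01% of all genes), at a list median of 0.17. Plxnb3, a semaphorin receptor of oligodendrocytes, had 10.6, 18.7, 9.89, 35.6 and 48.5 CPM against 47.7, 52.6 and 88.4 CPM (1.43 ± 0.19, adjusted p = 2.30e-04). Sema5b was the 1 guidance ligand of the list whose mice did not overlap, at 66.8, 49.5, 93.1, 82.6 and 33.0 CPM against 100.3, 132 and 162 CPM (1.06 ± 0.15, adjusted p = 5.44e-04). Of 28 genes of the node of Ranvier 6 were higher (21.4%) and 1 was lower (3.57%), and without C57BL/6J replicate 5 just 4 were called in all. Cntn2 of the juxtaparanode rose by 0.71 ± 0.09 and Hapln2 of the nodal matrix by 1.43 ± 0.23.

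Other guidance families were split between both directions. Among 27 netrin, Slit and Robo genes 5 were higher and 5 lower (18.5% each, against 4.01% and 2.59% of all genes). The netrin receptor Dcc had 418, 418, 486, 537 and 592 CPM in C57BL/6J mice and 651, 656 and 1035 CPM in C9-BACexp mice (0.56 ± 0.11, adjusted p = 0.00738), whereas the Slit receptor Robo2 fell by 0.35 ± 0.08. Unc5b rose by 1.03 ± 0.12 and the adhesion molecule Dscaml1 by 0.62 ± 0.09, while Flrt2 fell by 0.50 ± 0.10 and Boc by 1.00 ± 0.20. Of 21 Eph receptors and ephrins 2 were higher (9.52%) and 3 lower (14.3%), and 3 were called without C57BL/6J replicate 1 against 8 without replicate 5. Epha4 was lower in every C9-BACexp mouse (132 to 189.5 CPM against 192 to 275 CPM, −0.48 ± 0.07, adjusted p = 6.16e-04), Efna5 fell by 0.69 ± 0.14 and Efnb3 rose by 1.03 ± 0.15. Heparan sulfate proteoglycans and their enzymes were likewise mixed, with 4 of 36 higher (11.1%) and 3 lower (8.33%), or 4 called without C9-BACexp replicate 2. Beside the fall of Gpc6, the sulfotransferases Ndst1 (0.50 ± 0.09) and Hs6st2 (0.64 ± 0.14) and the endosulfatase Sulf1 (0.83 ± 0.15) rose, all without overlap between mice.

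Matrix and adhesion genes were called in 1 direction. Of 39 collagens and laminins 7 were higher (17.9%, against 4.01% of all genes) and none lower, 4 without C57BL/6J replicate 5, at a median of 0.13. Col6a1 had 142, 78.9, 183, 145 and 86.3 CPM against 166, 286 and 312 CPM (1.09 ± 0.15, adjusted p = 4.87e-04) and Col27a1 had 2.67, 4.25, 8.92, 4.38 and 2.29 CPM against 8.20, 13.02 and 15.3 CPM (1.65 ± 0.18, adjusted p = 4.96e-05). In both genes C57BL/6J replicate 3 was the mouse that overlapped. Col4a1 of basement membranes, a member of the same list, was at 0.03 ± 0.08. Of 45 integrin and focal adhesion genes 8 were higher (17.8%) and none lower, and 14 were called without C57BL/6J replicate 3. Beside Sorbs3 and Wipf1 they included Itgb4 (1.32 ± 0.22) and the actin cross-linker Flna (0.59 ± 0.09).

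Astrocyte genes went the other way from myelin genes. Of 24 tested, 6 were lower and none higher, against a background of 2.59% called lower, with a median of −0.45. Summed, the list stood at 1018 to 1388 CPM in C9-BACexp and 1300 to 1689 CPM in C57BL/6J mice. The glutamate transporter gene Slc1a3 fell by 0.65 ± 0.12 (adjusted p = 0.00327). Slc1a2, the main glutamate transporter of astrocytes, did not pass although its mice did not overlap, at 603 to 667 CPM against 443 to 573 CPM (−0.35 ± 0.10, adjusted p = 0.0557), and Aqp4 was too low to place, at −0.46 ± 0.21. The count of calls was 2 without C9-BACexp replicate 2, C9-BACexp replicate 4 or C57BL/6J replicate 1, and 3 without C57BL/6J replicate 5. Endothelial and mural genes had a median of −0.54 over 24 members but 1 call, Vtn (−1.22, adjusted p = 0.0484), which held without C57BL/6J replicate 3 or 4 and had an adjusted p of 0.0558 to 0.134 without each of the other 9 libraries. Calls in that list numbered 3 without C57BL/6J replicate 4 and 2 without C57BL/6J replicate 5. Microglial genes had a median of 0.00 over 22 members and Sall1 (0.82 ± 0.14) as the 1 call.

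Genes that mark cortical layers differed in opposite directions. In the upper-layer list 6 of 22 members were lower (27.3%, against 2.59% of all genes) and 1 was higher, at a median of −0.60. Rorb, the layer 4 nuclear receptor on the reverse strand of GRCm39 at chr19:18907969-19088585, had 53.0, 133, 71.5, 80.6 and 83.3 CPM in C57BL/6J mice and 28.2, 38.2 and 45.5 CPM in C9-BACexp mice (−1.15 ± 0.20, adjusted p = 0.00326). Pou3f2 (Brn2), a factor of upper-layer neurons, had 6.12, 10.2, 7.20, 7.78 and 6.16 CPM against 3.00, 3.60 and 4.01 CPM (−1.06 ± 0.16, adjusted p = 8.37e-04). Both were separated in every mouse and were among the 58 genes of the 3 analyses. Lamp5 (−0.87 ± 0.18) and Stard8 (−1.11 ± 0.16) fell too, whereas Cux2 missed the threshold at −0.65 ± 0.18 (adjusted p = 0.0515).

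In the deep-layer list 5 of 27 members were higher (18.5%, against 4.01% of all genes) and 1 lower, at a median of 0.35, and its summed level did not overlap, at 1740 to 2946 CPM in C57BL/6J and 3150 to 4132 CPM in C9-BACexp mice. Sulf1 had 141, 76.1, 110.4, 121 and 101 CPM against 149, 204 and 240.1 CPM (0.83 ± 0.15, adjusted p = 0.00505). Syt6, a synaptotagmin of layer 6 neurons, had 71.4, 35.7, 89.6, 71.0 and 49.2 CPM against 114, 132 and 205 CPM (1.13 ± 0.25, adjusted p = 0.0171), and without C57BL/6J replicate 5 its adjusted p was 0.0509. Bcl11b (Ctip2) rose by 0.80 ± 0.17, with an adjusted p of 0.0598 without C57BL/6J replicate 2. Tle4, another deep-layer gene, was at 0.32 ± 0.13 and did not pass. Slco2a1, the lower member, fell by 1.65 ± 0.35 from 5.13 to 11.1 CPM. C9-BACexp replicates 1 and 6 had the highest summed levels of striatal genes, described next. Without both mice the adjusted p was 0.0958 for Foxp2, which also belongs to the deep-layer list, and 0.0824 for Slco2a1. The part that striatal tissue may have in the deep-layer values was not tested.

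Striatal projection neuron genes rested on a few C9-BACexp mice. All 24 members had a positive fold change, at a median of 1.21, and 7 were called higher (29.2%, against 4.01% of all genes). None was called with factors from the differences between replicates or in the 11 libraries alone. The summed level reached 14070 CPM in C9-BACexp replicate 6, where the C57BL/6J mice had 2866 to 4770 CPM and the lowest C9-BACexp mouse 3547 CPM. Rgs9 had 54.6, 37.9, 49.9, 49.7 and 42.9 CPM against 71.2, 130.1 and 631 CPM (1.92 ± 0.48, adjusted p = 0.0365). Its adjusted p was 0.0509 without C9-BACexp replicate 2, and 0.0841, 0.0562, 0.0694 and 0.0763 without C57BL/6J replicates 2, 3, 4 and 5. Drd2, the dopamine receptor gene, had 2.003 to 3.57 CPM against 3.88, 21.8 and 174 CPM (3.60 ± 0.92, adjusted p = 0.0417), and kept its call in 3 fits with 1 library left out, those without C9-BACexp replicate 3, 4 or 5, with adjusted p-values of 0.0584 to 0.0857 in the others. Without C9-BACexp replicates 1 and 6 together no member of the list was called. The count was 1 without C57BL/6J replicate 2 or 4, 2 without C9-BACexp replicate 6 or C57BL/6J replicate 5, 3 without C9-BACexp replicate 2, and 4 without C9-BACexp replicate 1 or C57BL/6J replicate 3. The part that striatal tissue may have in these values was not tested.

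**Figure D3:**
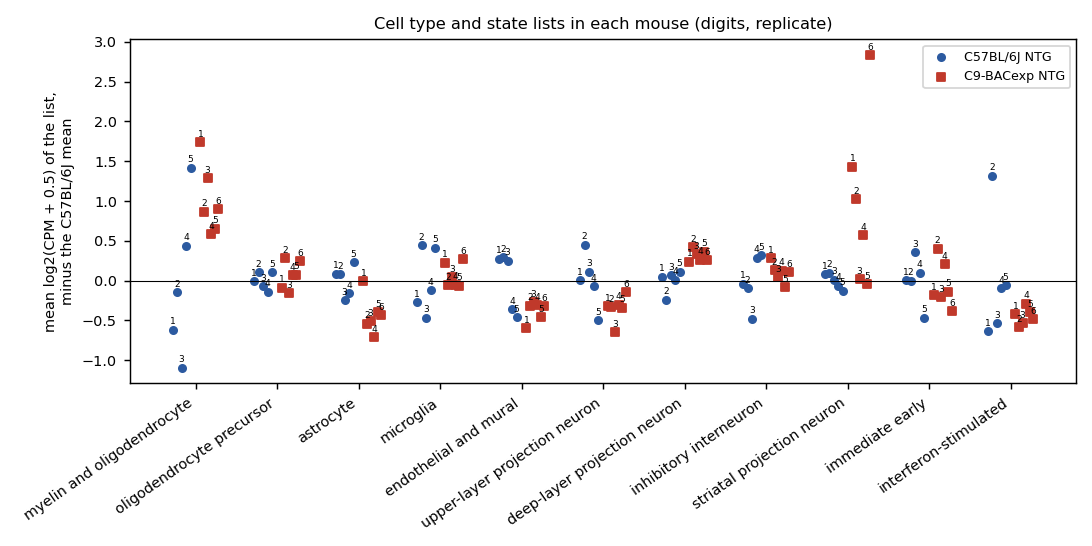
Mean log2(CPM + 0.5) of the members of each cell type or state list in each mouse, drawn as the difference from the C57BL/6J mean, with C57BL/6J as blue circles and C9-BACexp as red squares. The myelin list spans the widest range among C57BL/6J mice, the striatal list is highest in C9-BACexp replicate 6, the deep-layer list is apart between genotypes, and the interferon list is highest in C57BL/6J replicate 2.

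Of 65 potassium channel genes 9 were lower (13.8%, against 2.59% of all genes) and 3 higher (4.62%, against 4.01%), and 7 were called without C57BL/6J replicate 2. With factors from the differences between replicates 1 was lower and none higher, and none was called in the 11 libraries alone. Kcnip4, a partner of Kv4 channels, had 7019, 5832, 5346, 4561 and 5598 CPM in C57BL/6J mice and 2686, 3561 and 4533 CPM in C9-BACexp mice (−0.66 ± 0.09, adjusted p = 4.06e-04). The highest C9-BACexp mouse and the lowest littermate were close. Kcnc2, a fast Kv3 channel of interneurons, fell without overlap from 389 to 518 CPM to 245 to 365 CPM (−0.47 ± 0.09, adjusted p = 0.00517), and Kcnh5 fell by 0.80 ± 0.13. Of 28 GABA receptor and inhibitory synapse genes 8 were lower (28.6%) and none higher, at a median of −0.14. None of the 28 was called without factors, with factors from the differences between replicates or in the 11 libraries alone. Gabrb2 had 297, 328, 162, 277 and 427 CPM against 184, 188 and 249 CPM (−0.49 ± 0.07, adjusted p = 3.60e-04). C57BL/6J replicate 3 was the lowest of its group. The list had 4 calls without C57BL/6J replicate 1 and 3 without C57BL/6J replicate 5.

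Counts in the next lists were small, of 0 to 4 genes in each direction against a background of 4.01% called higher and 2.59% called lower, and nothing is read from them. Among 26 interneuron genes Prox1 was called beside Kcnc2, at 0.86 higher, and 1 of the 2 was called without C57BL/6J replicate 1. Glutamate receptor genes had 3 members higher (6.67%) and 1, Nlgn1, lower (2.22%) of 45, with 8 called without C57BL/6J replicate 3 and 7 without C9-BACexp replicate 1. The kainate receptor subunit Grik3 rose by 0.69 ± 0.11. Of 41 sodium and calcium channel genes 3 were higher (7.32%), of which 1 remained in the count without C57BL/6J replicate 5 and 5 were called without C9-BACexp replicate 1, C57BL/6J replicate 1 or C57BL/6J replicate 3. Of 56 vesicle and release genes 4 were higher (7.14%) and 2 lower (3.57%), with 10 called without C57BL/6J replicate 3 and 3 without C57BL/6J replicate 5. The active zone scaffold Pclo rose by 0.41 ± 0.05 and the calcium sensor Syt9 by 0.87 ± 0.19. None of 25 immediate early genes, which neuronal activity induces, was called with edgeR, DESeq2 or limma-trend, 1 had an unadjusted p under 0.05, and 1 was called by edgeR without C57BL/6J replicate 5.

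Of 82 splicing and nuclear speckle genes tested, 11 were higher (13.4%, against 4.01% of all genes) and 3 lower (3.66%, against 2.59%), while the list median was not shifted from that of all genes, at −0.01. With factors from the differences between replicates 1 was higher and none lower, and none was called in the 11 libraries alone. Srrm2, the scaffold of nuclear speckles, had 699, 771, 1270, 869 and 402 CPM in C57BL/6J mice and 801, 1142 and 1300 CPM in C9-BACexp mice (0.52 ± 0.06, adjusted p = 2.68e-05). C57BL/6J replicates 3 and 5 were at the opposite ends of their group. Pnn (0.39 ± 0.08) and Rbm25 (0.33 ± 0.06) rose without overlap between mice, and Son (0.36 ± 0.05) and Srsf4 (0.38 ± 0.06) with it. The list had 7 calls without C57BL/6J replicate 5 and 20 without C57BL/6J replicate 3. Neat1, the RNA that builds paraspeckles, had 27.7, 54.2, 33.1, 90.1 and 84.5 CPM against 87.2, 112 and 227 CPM (1.27 ± 0.24, adjusted p = 0.00528), with an adjusted p of 0.0596 without C57BL/6J replicate 1. Of 17 nuclear long non-coding RNAs it was 1 of 2 higher, with Sox2ot (1.07 ± 0.14), while Rian was lower (−0.35 ± 0.07), and 5 were called without C57BL/6J replicate 5.

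Genes linked to ALS and FTD showed 3 members higher and 3 lower of 39 (7.69% each, against 4.01% and 2.59% of all genes), and 1 call without C57BL/6J replicate 5. Mapt, which encodes tau, was 0.30 higher and Tardbp, which encodes TDP-43, 0.31 lower. Without C57BL/6J replicate 5 Mapt was at 0.25, below the fold limit, and the adjusted p of Tardbp was 0.054. Mouse C9orf72 had 24.6, 22.1, 15.6, 21.9 and 31.5 CPM in C57BL/6J mice and 17.1, 18.8 and 20.5 CPM in C9-BACexp mice, within the range of the littermates. Its difference of −0.27 on the log2(CPM + 0.5) scale did not pass (exact permutation p = 0.141, 0.338 adjusted over 7 values). Smcr8 differed by 0.21 (exact permutation p = 0.0368, adjusted 0.258) and Wdr41 by −0.15 (exact permutation p = 0.357, adjusted 0.625). Of 48 autophagy genes 4 were higher (8.33%), 2 without C57BL/6J replicate 1 and 8 without C57BL/6J replicate 3, with Rubcn, an inhibitor of autophagosome maturation, at 0.36 ± 0.06.

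Stress and immune lists held no gene called with edgeR or limma-trend in all 11 libraries. Of 45 heat shock and unfolded protein response genes none was called with edgeR, 1 was with DESeq2 and the same factors, 18 had an unadjusted p under 0.05 and the median was −0.15, and 3 were called by edgeR without C57BL/6J replicate 5. None of 38 interferon-stimulated genes was called with edgeR and 1 was with DESeq2 and factors. Of these genes 5 had an unadjusted p under 0.05 and 34 had a negative fold change, at a median of −0.60. C57BL/6J replicate 2 had the highest summed level, 458 CPM against 113 to 186 CPM in the other 10 mice, and its part in the median was not tested. Without factors the list median was −0.84 with NTG, −0.70 with EGFP-KASH only and −2.25 with crRNA-13. MHC class I and complement genes (27 tested, 2 with an unadjusted p under 0.05, median −0.23) and sterol synthesis genes (26 tested, 3 with an unadjusted p under 0.05, median 0.03) had no call with edgeR either, and DESeq2 with factors called 1 sterol gene.

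**Figure D4:**
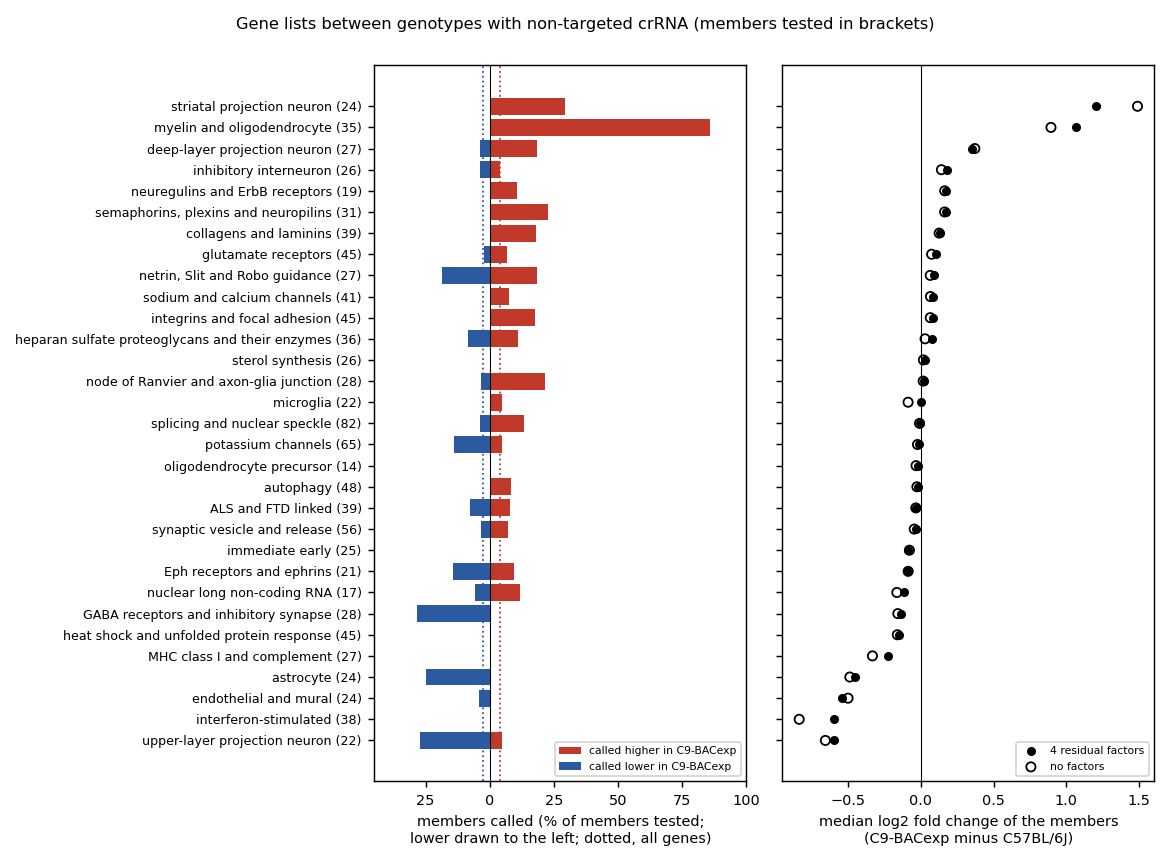
Share of each list's tested members called higher (red, to the right) or lower (blue, to the left) and the median log2 fold change of its members with 4 factors (filled) and without (open), with the shares over all genes as dotted lines. The myelin list has the largest share called higher, the GABA and upper-layer lists have the largest shares called lower, and the medians with and without factors lie close together in most lists. Shares are those with 4 factors, and without factors edgeR called no member of any list.

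The genotype difference was also measured in mice given crRNA-13, which targets the repeat RNA, and in mice given EGFP-KASH only, and these comparisons shared no mouse with that under NTG. Log2 fold changes without factors were set side by side for the 1435 genes called with NTG. With EGFP-KASH only, 1316 of them (91.71%) had the same sign as with NTG, where the share over all tested genes was 63.62%. With crRNA-13 the share was 89.62%, against 61.73% over all genes. The sizes were smaller than with NTG. The higher genes had a median of 0.52 with NTG, 0.33 with EGFP-KASH only and 0.26 with crRNA-13, and the lower genes had −0.52, −0.30 and −0.18. The genes were chosen on the NTG comparison, so a smaller size in the others was built into the choice.

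For single genes the values with EGFP-KASH only and then with crRNA-13 were as follows. Phldb1 was at 0.93 and 0.70, Chdh at 1.23 and 0.68, Micall1 at 0.81 and 0.72, and Mag at 1.08 and 0.65. Gpc6 was at −0.58 and −0.21, Kctd16 at −0.52 and −0.27, and Herc3 at −0.17 and −0.04. Mobp was at 0.99 and 0.26, and Dcc at 0.22 and 0.04. The median of the myelin list was 0.76 with EGFP-KASH only and 0.74 with crRNA-13, and that of the upper-layer list was −0.33 and 0.01.

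Whether the genotype difference itself differed between treatments was tested as an interaction in the same model. No gene passed for NTG against EGFP-KASH only with edgeR, where 2249 of all genes (10.3%) had an unadjusted p under 0.05, as did 337 of the 1435 called genes (23.5%). For NTG against crRNA-13 just Gm14296 passed (0.00459% of genes), named after its values were seen, where 2277 of all genes (10.5%) had an unadjusted p under 0.05, as did 680 of the called genes (47.4%). Without factors the shares of all genes with such a p were 4.23% for EGFP-KASH only and 4.24% for crRNA-13. The called genes were chosen on the NTG difference that enters both interactions, so nothing is read from their shares. Gm14296 had 0 counts in 4 of the 6 C9-BACexp NTG mice and up to 54.1 CPM in the others, 0 in every C57BL/6J NTG mouse, and 85.7 CPM in 1 of 3 C57BL/6J mice with crRNA-13, so its fitted difference had no stable size. The count for crRNA-13 was 34 without C57BL/6J replicate 3, 32 without C57BL/6J replicate 5, 15 without C57BL/6J replicate 4 and 2 without C9-BACexp replicate 3 or 6, and 0 without factors. That for EGFP-KASH only was 1 without C9-BACexp replicate 1.

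**Figure D5:**
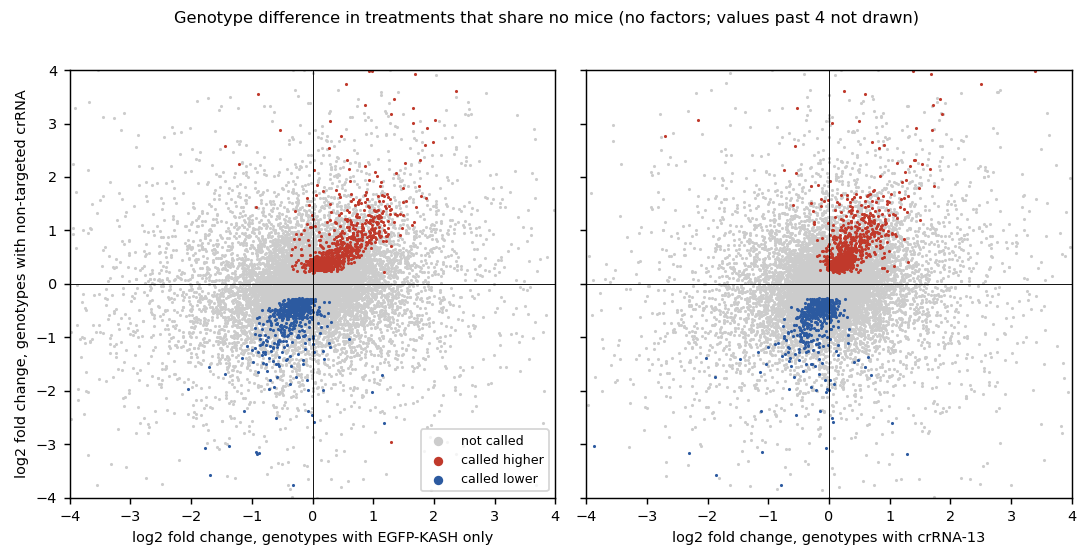
Log2 fold change between genotypes with NTG (vertical) against that with EGFP-KASH only (left) and with crRNA-13 (right), each point a gene, without factors, with genes called higher in red, lower in blue and the rest in grey. Called genes lie mostly in the quadrants of equal sign. Over all 1435 called genes the share of equal sign is 91.71% with EGFP-KASH only and 89.62% with crRNA-13. The human transcripts and values beyond the axes are not drawn.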

How the data were processed

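The deposited table holds gene-level values of 27 libraries, 11 of which enter this comparison. As deposited by the authors they are expected counts, estimated with Salmon 1.10.0 and summed per gene in R 4.3.1 on spliced and unspliced transcripts of GRCm39 with human C9ORF72 and EGFP-KASH added, and they are not normalized between libraries. Values were rounded to whole counts and TMM-scaled. The filterByExpr filter, with a minimum count of 10 and a minimum total of 15, kept 21768 of 39338 genes. The main test was the quasi-likelihood test of edgeR 4.0.16 with robust fitting (R 4.3.3), in 1 model of 6 groups with 4 factors of unwanted variation computed from residuals. The study states 4 RUVSeq factors without naming the method, so residuals are an assumption. The p-values were adjusted by Benjamini-Hochberg over 5 comparisons together, and a gene was called when it changed by more than 1.2-fold with an adjusted p below 0.05. Each standard error was the size of the log2 change over the root of its F value, and the scripts were tested on simulated data. Single values on the log2(CPM + 0.5) scale were put to an exact permutation test (two-sided) over 462 splits, where the smallest p is 0.004329. Alternatives were other or no factors, the 11 libraries alone, DESeq2 1.42.0, limma 3.58.1, other scaling, no filter, marker scores as covariates, a replicate block and leaving out each library.

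Genes are named by a rule, as the 15 called genes each way with the smallest p among those with a mean of at least 5 CPM, no overlap between genotypes and no predicted-gene symbol, up to 5 called members of each list (2 where none was called), the transgene, EGFP-KASH, C9orf72, Smcr8 and Wdr41, while other list members are given with their values as members. Members and lists were chosen with earlier results of these data known, and the lists therefore carry no test of their own. Labels name neither litter nor sex, their protocol fields describe transfected cells, and the study's methods were followed for the mice. Replicates are separate mice. Library totals were 23251069 to 36777972 counts, and limits for a count of 0 cover counting error only. Replicate numbers recur in both groups but did not pair the mice, with correlations of −0.162 to −0.0194 between the 5 same-numbered pairs.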

Additional observations from a re-analysis of the deposited data

Results flagged for a closer look

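Single mice stood apart within their group in 8 of 130 groups of values examined, by the gap between the extreme mouse and its nearest neighbour relative to the range of the group, and chance alone flags about 1 in 20. On the mean log2(CPM + 0.5) scale, C57BL/6J replicate 2 was lowest for the deep-layer genes at 4.475, which hold Bcl11b, Foxp2, Sulf1 and Syt6. C57BL/6J replicate 1 was lowest for the genes of the node of Ranvier at 7.526. C9-BACexp replicate 1 was highest for the GABA receptor genes at 6.255, the autophagy genes at 5.268 and the genes linked to ALS and FTD at 5.613. Of single genes on the log2(CPM + 0.5) scale, Micall1 was lowest in C9-BACexp replicate 6 at 5.458, and Sorbs3 at 5.602 and Cdh12 at 9.739 were highest in C9-BACexp replicate 1. In Sorbs3 and Cdh12 the genotypes did not overlap with that mouse included, and in Micall1 the lowest C9-BACexp mouse remained above every C57BL/6J mouse. These genes were chosen among those without overlap, so nothing is read from this.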

How the results depend on the processing

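The count of 1435 genes depended on the treatment of unwanted variation. It was 6 without factors, 219 with factors from the differences between replicates, 683 with 2 factors and 121 in the 11 libraries alone. With marker list scores as covariates and no factors it was 2, both human transcripts. It was 4 with limma-trend without factors, 282 with DESeq2 without factors and 2252 with DESeq2 with factors. With p adjusted over this comparison alone it was 2225. With a replicate block 912 genes were called, 856 of them among the 1435. Since numbers were not found to pair the mice, with no same-numbered mouse the best match in any of 5 pairs, the block is an alternative and not a paired analysis. Leaving out 1 library gave 1008 to 2122. DESeq2 size factors (1460), no filter (1226), limma-trend with factors (1467) and leaving out C9-BACexp replicates 1 and 6 (1347) kept the count within 1.5 times. The interaction with EGFP-KASH only went from 0 to 1 gene without a filter and was 0 to 1 with 1 library left out. That with crRNA-13 went from 1 to 0 without factors, with 2 factors and with the block, to 2 without a filter, and to 1 to 34 with 1 library left out. With the covariates the change of Micall1 went from 0.98 to 0.075, of Arhgap23 from 0.73 to 0.13, of Pik3c2b from 0.80 to 0.15, of Phldb1 from 1.31 to 0.49 and of Gpc6 from −1.08 to −0.50, and the sign turned for Ypel2 (−0.043), Ddr1 (−0.020), Sall1 (−0.037), Prox1 (−0.32), Sema6a (−0.24), Tgfa (−0.64) and Wipi1 (−0.12), and the cause was not tested. Of 146 named genes, 128 were called in the main fit. On the same side of the threshold were 22 without factors and 126 with the block, counts that include genes called in neither fit. Just the human transcripts and Herc3 of the named genes were called without factors. Libraries of this depth limit genes below about 1 CPM such as Cldn5.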
